A study of Homo sapiens with 9 samples.

Results

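Epithelial integrins were described here as 10 genes chosen by symbol: the alpha subunits ITGA1, ITGA2, ITGA3, ITGA5, ITGA6 and ITGAV and the beta subunits ITGB1, ITGB4, ITGB5 and ITGB6. They are 10 of the 26 integrin subunit genes and of the 60591 symbols in the counts table, and all 10 passed the filter on low counts that left 15944 genes for testing. Messenger RNA was sequenced in uCaco-2 cells, the proliferating, undifferentiated state of Caco-2, a line from a human colon adenocarcinoma. Cells were kept for 24 h in medium with 300 μM CoCl2, in medium with 5 μM of the oxyquinoline derivative 4896-3212 (OD, labelled Oxy) or in fresh medium (control), and all 3 media held 0.5% DMSO. Each condition had 3 libraries, which the study's methods call biological replicates. Both agents are known activators of HIF signaling, and the question was how the subunits that pair on the epithelial surface responded to each of them, with ITGA5 set among its partners.

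An integrin is a heterodimer of 1 alpha and 1 beta chain that spans the plasma membrane and ties the extracellular matrix to the cytoskeleton. The alpha chain largely sets the ligand: ITGA5 pairs with ITGB1 as the classical fibronectin receptor, ITGA1 and ITGA2 pair with ITGB1 as collagen receptors, and ITGA3 and ITGA6 form laminin receptors. ITGA6 also pairs with ITGB4, the chain that anchors hemidesmosomes to keratin filaments. ITGAV pairs with ITGB1, ITGB5 or ITGB6 to bind ligands with the RGD motif, and the ITGAV:ITGB6 pair, found in epithelia, activates latent TGF-beta.

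Total counts per library ran from 15998136 to 24209427. Of 10 colonic epithelial marker genes, 9 reached 10 counts (CDX1 had 0 counts). Their summed level in CPM (counts relative to a shared library size after TMM scaling) was 10685 to 11150 in control, 12791 to 13701 with CoCl2 and 10348 to 10878 with OD. KRT8 and KRT18 made up most of this sum, with control means of 4983 and 2867 CPM. Of the 9 markers, 7 rose and 2 fell with CoCl2 at an adjusted p under 0.05 (edgeR), where 40.4% and 42.8% of all tested genes did. With OD, 5 rose and 2 fell, where 32.3% and 33.3% of all tested genes did. With library size only in place of TMM scaling, CDX2, EPCAM, KRT8, KRT18, CDH1 and HNF4A were lower with CoCl2 (log2 fold change −0.33 to −0.09). CDH17 stayed higher (0.26). The 2 that fell with CoCl2 under TMM scaling were VIL1, from a control mean of 613 to 112 CPM, and KRT20, from 4.49 to 1.74 CPM. The 6 fibroblast markers summed to 22.9 to 26.8 CPM in control, 18.4 to 20.8 with CoCl2 and 32.0 to 33.4 with OD, the 5 leukocyte markers to 37.5 to 43.4 in control, 54.6 to 58.7 with CoCl2 and 35.5 to 39.1 with OD, and the 6 endothelial and platelet markers to 2.67 to 3.72. PTPRC, the pan-leukocyte marker, was at 3 counts or fewer, and LYZ, which made up most of the leukocyte sum, averaged 35.9 CPM in control, 51.5 with CoCl2 and 34.6 with OD. The part of these markers in the results was not tested. TMM factors were 0.770 to 0.795 in CoCl2 libraries and 1.11 to 1.15 in the others. With library size only in their place, the median log2 fold change of all tested genes with CoCl2 moved from −0.05 to −0.55, and the share of higher genes among those differentially expressed fell from 46.0% to 23.9%. Values for CoCl2 are therefore relative to this scaling.

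ITGA2, ITGA5 and ITGB6 were the members with a log2 fold change above 1 with CoCl2, and the bases just upstream of their starts are shown so that the sequence stands beside their values. The windows are from RefSeq (GRCh38.p14), run 5′ to 3′ on the strand of the gene up to the base before its first annotated exon, and mark in capitals the hypoxia-response core GCGTG, or its complement where the core lies on the opposite strand.

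ITGA5, chr12:54419267-54419516, minus strand: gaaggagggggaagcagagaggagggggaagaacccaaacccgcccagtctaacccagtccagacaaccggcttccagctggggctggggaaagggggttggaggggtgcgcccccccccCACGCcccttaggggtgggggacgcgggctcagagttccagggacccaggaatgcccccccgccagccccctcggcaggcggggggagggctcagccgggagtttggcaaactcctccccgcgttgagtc

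ITGA2, chr5:52989102-52989339, plus strand: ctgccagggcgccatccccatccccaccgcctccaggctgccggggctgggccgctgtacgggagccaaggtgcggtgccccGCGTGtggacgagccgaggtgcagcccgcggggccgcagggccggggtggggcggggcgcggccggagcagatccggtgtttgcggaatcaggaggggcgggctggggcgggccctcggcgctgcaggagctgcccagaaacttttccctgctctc

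ITGB6, chr2:160200314-160200522, minus strand: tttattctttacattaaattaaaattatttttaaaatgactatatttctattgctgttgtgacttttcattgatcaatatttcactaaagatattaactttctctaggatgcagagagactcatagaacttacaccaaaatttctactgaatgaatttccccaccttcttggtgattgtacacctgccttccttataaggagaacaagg

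The ITGA5 window held 1 core at positions −130 to −126 from the RefSeq start, and the ITGA2 window held 1 at −168 to −164. No core of either spelling searched was found in the 209 bases shown of ITGB6. The second spelling searched was ACGTG. ITGB5, which fell with CoCl2 (−0.77), held GCGTG at −200 to −196, −190 to −186 and −150 to −146 from 1 start and at −244 to −240 from another. ITGA6, which rose, held both spellings. None was found for ITGAV and ITGB1, which rose, or for ITGA1, which fell. On both strands of the 250 bases before each start, at least 1 of these spellings was present in 43.2% of 35116 RefSeq promoter windows and in 6 of the 13 windows of the 8 members found in the table. GGAAA, the core bound by NFAT factors, lay at −162 to −158 in ITGA5, at −25 to −21 in ITGA2 and at −95 to −91 in ITGB6. It was in 55.6% of all windows and in 7 of the 13 member windows. Among these were windows of ITGA1 and ITGB5, which fell with CoCl2, and of ITGAV and ITGB1, which rose. The AP-1 motif TGANTCA, in 6.57% of all windows, was in 0 of the 13. These letters are common and a match is a description only.

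With CoCl2, 6 of the 10 members rose and 4 fell at an adjusted p under 0.05 (edgeR quasi-likelihood test), where 40.4% of all tested genes rose and 42.8% fell. The members that rose were ITGA2, ITGA5, ITGA6, ITGAV, ITGB1 and ITGB6, and those that fell were ITGA1, ITGA3, ITGB4 and ITGB5. With OD, 8 rose, 1 fell (ITGA1) and 1 did not pass (ITGB5), against 32.3% and 33.3% of all tested genes. At the study's second threshold, a log2 fold change above 1 in size, 3 members were upregulated and 1 downregulated with CoCl2, where 19.9% and 23.4% of all genes were. With library size only, these counts became 1 and 3, where 1833 and 5839 of the 15944 genes were. With OD, 2 members were upregulated and 0 downregulated, where 9.09% and 4.16% of all genes were. The median log2 fold change of the members was 0.65 with CoCl2 and 0.64 with OD, against −0.05 and −0.01 over all tested genes. Both comparisons share the 3 control libraries. In bulk RNA, fewer cells carrying a transcript and less of it per cell cannot be told apart.

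**Figure D1:**
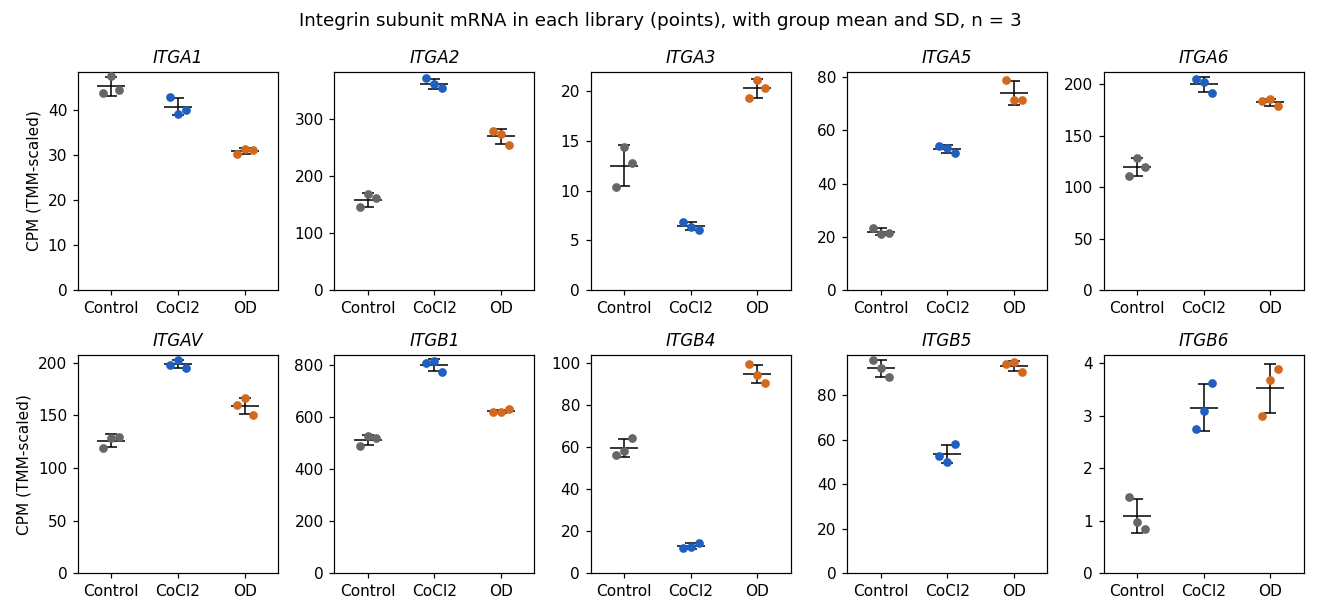
TMM-scaled CPM of each of the 10 integrin subunits (vertical axes, each from 0) in every library of the control, CoCl2 and OD groups, with group mean and SD bars (n = 3). ITGB4 sits between 11.9 and 14.4 CPM in the CoCl2 libraries and between 90.6 and 99.5 CPM in the OD libraries, while ITGA5 is above the control libraries in both.

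Of the fibronectin receptor chains, ITGA5 had the larger fold changes and was highest with OD, whereas ITGB1 was highest with CoCl2. ITGA5 (ENSG00000161638, chr12:54395261-54419266, GRCh38) measured 23.3, 21.0 and 21.5 CPM in the control libraries, 54.0, 53.4 and 51.3 with CoCl2 and 79.0, 71.2 and 71.4 with OD. The 3 groups did not overlap. Its log2 fold change was 1.27 (SE 0.064, adjusted p = 1.63e-27) with CoCl2 and 1.75 (SE 0.060, adjusted p = 3.44e-35) with OD, and the log2 difference of CoCl2 from OD was −0.48 (SE 0.055, adjusted p = 3.91e-12). ITGB1 (chr10:32887273-33005792), the common beta chain, measured 491, 527 and 522 CPM in the control libraries, 810.1, 816 and 775 with CoCl2 and 622, 619 and 630.4 with OD. Its groups did not overlap either. ITGB1 rose by 0.64 on the log2 scale (SE 0.039, adjusted p = 2.61e-23) with CoCl2 and by 0.28 (SE 0.039, adjusted p = 4.36e-09) with OD.

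The collagen receptor alpha chains, neighbours on chromosome 5, went in different directions. ITGA2 (chr5:52989340-53094779) measured 146, 169 and 162 CPM in the control libraries, 372, 362 and 355 with CoCl2 and 281, 275 and 255 with OD. It rose in both treatments with no overlap between groups, by 1.19 (SE 0.045, adjusted p = 2.4e-33) and 0.77 (SE 0.045, adjusted p = 3.47e-23). ITGA1 (chr5:52787916-52959209) fell from 45.3 ± 2.08 CPM (SD, n = 3) to 30.9 ± 0.569 with OD, a log2 fold change of −0.55 (SE 0.059, adjusted p = 1.58e-12). With CoCl2 its level was 40.7 ± 1.89 CPM and its log2 fold change −0.15 (SE 0.059, adjusted p = 0.0157), a call lost with RLE factors, with DESeq2 and without control library 2, CoCl2 library 2 or CoCl2 library 3 (−0.10 to −0.16). Of the exonic bases of ITGA1, 13.2% are shared with other genes, among them PELO and ITGA2-AS1, so its counts are less certain than those of ITGA2, which shares 0%. The share was 5.26% for ITGA6, 2.75% for ITGB1, 1.05% for ITGAV, 0.65% for ITGA5 and 0% for ITGA3, ITGB4 and ITGB5.

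The laminin receptor chains held the largest contrast between the treatments. ITGB4 (chr17:75721328-75757818) measured 56.3, 58.3 and 64.7 CPM in the control libraries, 11.9, 12.5 and 14.4 with CoCl2 and 99.5, 94.6 and 90.6 with OD. It was lowest in every CoCl2 library and highest in every OD library. The log2 fold change was −2.19 (SE 0.072, adjusted p = 3.23e-37) with CoCl2 and 0.67 (SE 0.054, adjusted p = 2.39e-17) with OD. ITGA3 (chr17:50055968-50090481), which pairs with ITGB1, moved in the same directions, at 10.4, 14.4 and 12.8 CPM in the control libraries, 6.84, 6.35 and 6.08 with CoCl2 and 19.3, 21.2 and 20.3 with OD. It fell by 0.97 on the log2 scale (SE 0.11, adjusted p = 5.93e-12) with CoCl2 and rose by 0.69 (SE 0.086, adjusted p = 1.77e-10) with OD. ITGA6 (chr2:172427354-172506459), the alpha partner of ITGB4, did not follow it. Its level was 111, 128 and 119 CPM in the control libraries, 206, 203 and 192 with CoCl2 and 183, 186 and 179 with OD, and it rose by 0.74 (SE 0.046, adjusted p = 3.01e-23) and 0.61 (SE 0.045, adjusted p = 5.77e-19).

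The chains of RGD receptors went in different directions with CoCl2. ITGAV (chr2:186590010-186680901) was at 126 ± 6.06 CPM in the control libraries, 199 ± 3.96 with CoCl2 and 159 ± 7.89 with OD (SD, n = 3), and rose by 0.66 (SE 0.045, adjusted p = 4.09e-21) and 0.34 (SE 0.045, adjusted p = 1.1e-09). ITGB5 (chr3:124761948-124901418) measured 95.5, 91.9 and 88.2 CPM in the control libraries, 52.8, 50.1 and 57.8 with CoCl2 and 93.8, 94.8 and 90.3 with OD. It fell with CoCl2 by 0.77 on the log2 scale (SE 0.053, adjusted p = 8.09e-21), whereas the OD and control libraries overlapped (0.018, 95% interval −0.079 to 0.11, adjusted p = 0.766). ITGB6 (chr2:160099667-160200313), the epithelial beta chain, had few reads, with 27, 20 and 15 counts in the control libraries, 44, 40 and 69 with CoCl2 and 66, 83 and 73 with OD. Scaled to CPM, its groups of 1.09 ± 0.320 (control), 3.15 ± 0.443 (CoCl2) and 3.52 ± 0.466 (OD) left the control libraries below all others. The log2 fold changes of ITGB6 were 1.54 (SE 0.22, adjusted p = 5.62e-09) and 1.68 (SE 0.21, adjusted p = 1.32e-10), with the widest errors among the members. Of its exonic bases, 16.7% are shared with ENSG00000285155 on the same strand.

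**Figure D2:**
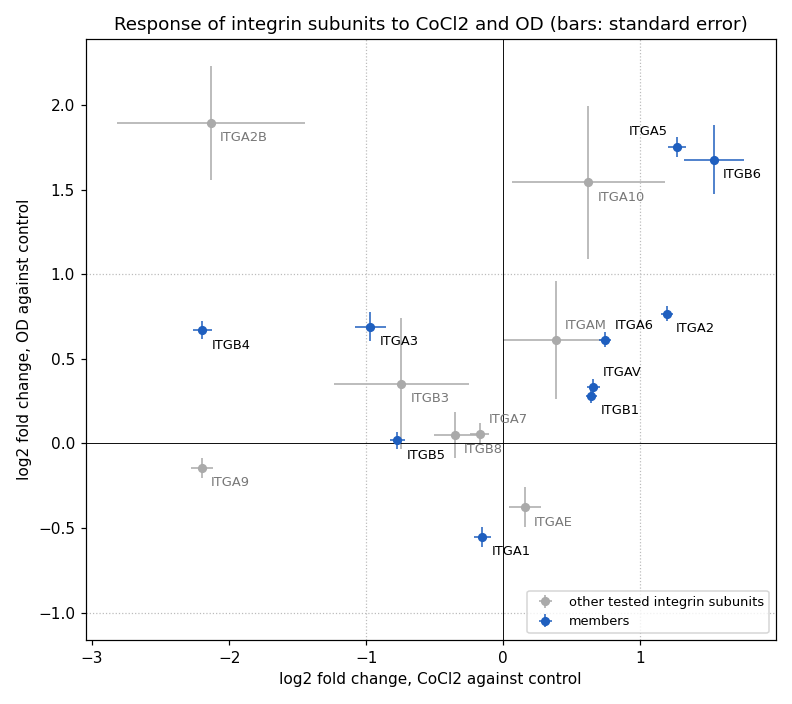
Log2 fold change with CoCl2 (horizontal axis) and with OD (vertical axis), both against the same control libraries, for the 10 members (blue) and 8 other tested integrin subunits (grey), with standard errors as bars and dotted lines at 1 and −1. ITGB4 (−2.19 and 0.67) and ITGA3 (−0.97 and 0.69) lie at upper left, and ITGA5 (1.27 and 1.75) and ITGB6 (1.54 and 1.68) at upper right.

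Set directly against each other, CoCl2 and OD differed in 9 of the 10 members: 5 were higher with CoCl2 and 4 lower, where 40.2% and 43.2% of all tested genes were, and with library size only 0 were higher and 10 lower, where 3776 and 9802 of the 15944 genes were. Past a log2 difference of 1, 0 were higher and 2 lower, where 17.5% and 23.8% of all genes were. The lower members were ITGB4, by −2.86 (SE 0.069, adjusted p = 1.47e-44), ITGA3, by −1.66 (SE 0.10, adjusted p = 2.78e-23), ITGB5, by −0.79 (SE 0.053, adjusted p = 2.02e-21), and ITGA5 as above. These 4 kept that direction in each scaling tried. The higher members were ITGA2 (0.42), ITGA1 (0.40), ITGB1 (0.36), ITGAV (0.32) and ITGA6 (0.13), and with library size only each of them was lower with CoCl2 (−0.42 to −0.12). ITGB6 did not pass, at −0.14 (95% interval −0.48 to 0.19, adjusted p = 0.432), and reached −0.69 with library size only.

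A ratio of counts inside a library does not depend on this scaling. The log2 ratio of ITGA5 to ITGB1 was −4.40, −4.65 and −4.60 in the control libraries, −3.91, −3.93 and −3.92 with CoCl2 and −2.98, −3.12 and −3.14 with OD. Relative to its obligate beta partner, ITGA5 was thus 1.55-fold higher with CoCl2 and 2.77-fold higher with OD than in control libraries, with no overlap between groups. Over the 9 other members and 3 comparisons, 23 of 27 ratios of ITGA5 reached 0.1, the smallest p that a two-sided exact permutation test of 3 against 3 libraries can give (0.117 after Benjamini-Hochberg adjustment), so the design could not pass 0.05. The exceptions were the ratio to ITGA2 with CoCl2, which differed from control by 0.074 (exact p = 0.5), and the 3 ratios to ITGB6 (exact p = 0.3, 0.9 and 0.3). All 27 ratios share the counts of ITGA5, which itself changed in each of the 3 comparisons. The share of ratios of ITGA5 to all other tested genes that separate the groups was not computed. The count of 23 is therefore no trait of the members. Against ITGB4, the ITGA5 ratio was 11.2-fold higher with CoCl2 than in control libraries and 2.12-fold higher with OD. The log2 ratio of ITGA6 to its partner ITGB4, chosen after its values were seen and so given with no test, was 0.98, 1.13 and 0.88 in the control libraries, 4.11, 4.02 and 3.73 with CoCl2 and 0.88, 0.97 and 0.98 with OD. CoCl2 libraries stood alone in this ratio, while OD and control libraries overlapped.

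**Figure D3:**
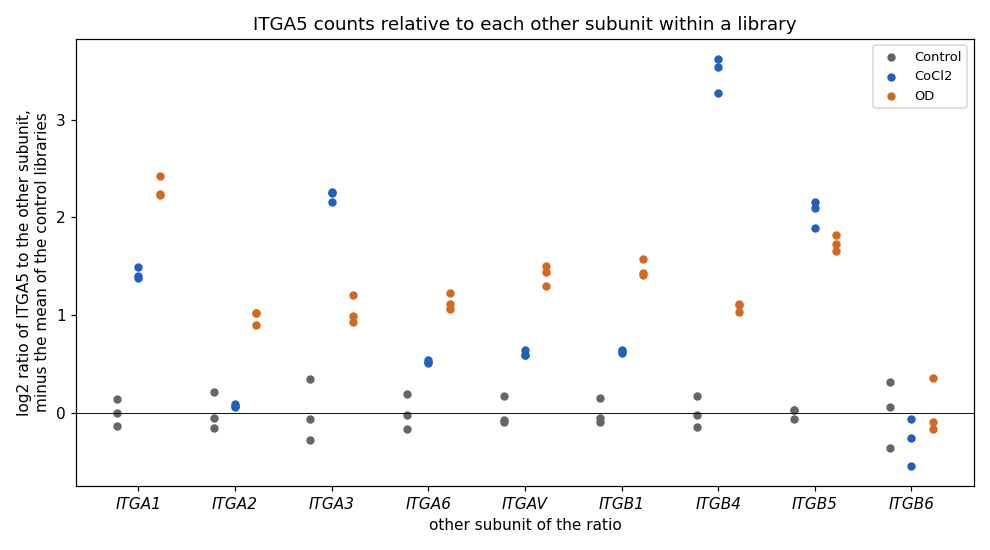
Log2 ratio of ITGA5 counts to those of each of the 9 other members within a library (vertical axis), minus the mean of the 3 control libraries, with 1 point per library. The ratio to ITGB1 lies 0.63 above control with CoCl2 and 1.47 above it with OD, the ratio to ITGA2 overlaps control with CoCl2 (0.074), and the ratio to ITGB6 overlaps control in both treatments.

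For an order of levels between genes, CPM was divided by the kilobases of exonic bases. Among alpha chains in the control libraries the order was ITGA2 (20.1), ITGA6 (17.9), ITGAV (6.51), ITGA5 (2.97), ITGA1 (2.44) and ITGA3 (1.28), of which ITGA2 and ITGA6 overlapped between libraries and the other neighbours did not. Per kilobase of the longest transcript, ITGA6 (20.5) led ITGA2 (20.2), again with overlap, and ITGA5 (4.39) overlapped ITGA1 (4.22). With CoCl2 the order was the same, with ITGA5 at 7.17 CPM per kilobase. With OD, ITGA5 (10.0) stood above ITGAV (8.22), but per kilobase of the longest transcript it stayed below it (14.8 against 20.0), so this rank, too, depended on the length used. The share of ITGA5 in the summed length-scaled level of the 6 alpha chains was 6.61%, 5.27% and 5.65% in the control libraries, 7.43%, 7.49% and 7.44% with CoCl2 and 12.5%, 11.4% and 12.1% with OD. Among beta chains, ITGB1 led in every group, with a share of 60.4% ± 1.05 in control, 83.7% ± 1.45 with CoCl2 and 59.7% ± 0.942 with OD (SD, n = 3). ITGB4 held 15.1% ± 0.910, 2.92% ± 0.325 and 19.6% ± 0.767 in the same order, and ITGB5 24.2% ± 1.45, 12.5% ± 1.04 and 19.9% ± 0.420. These shares depended on the length used: with the longest transcript, ITGB1 held 74.6%, 90.5% and 74.6%, ITGB4 8.27%, 1.40% and 10.8%, and ITGB5 16.9%, 7.67% and 14.1%. The lower share of ITGB4 and ITGB5 with CoCl2 was present with both lengths. With OD, ITGB4 and ITGB5 overlapped per kilobase of exonic bases, while per kilobase of the longest transcript ITGB5 (20.9) lay above ITGB4 (16.1) without overlap. The share of ITGB6 stayed below 1%.

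**Figure D4:**
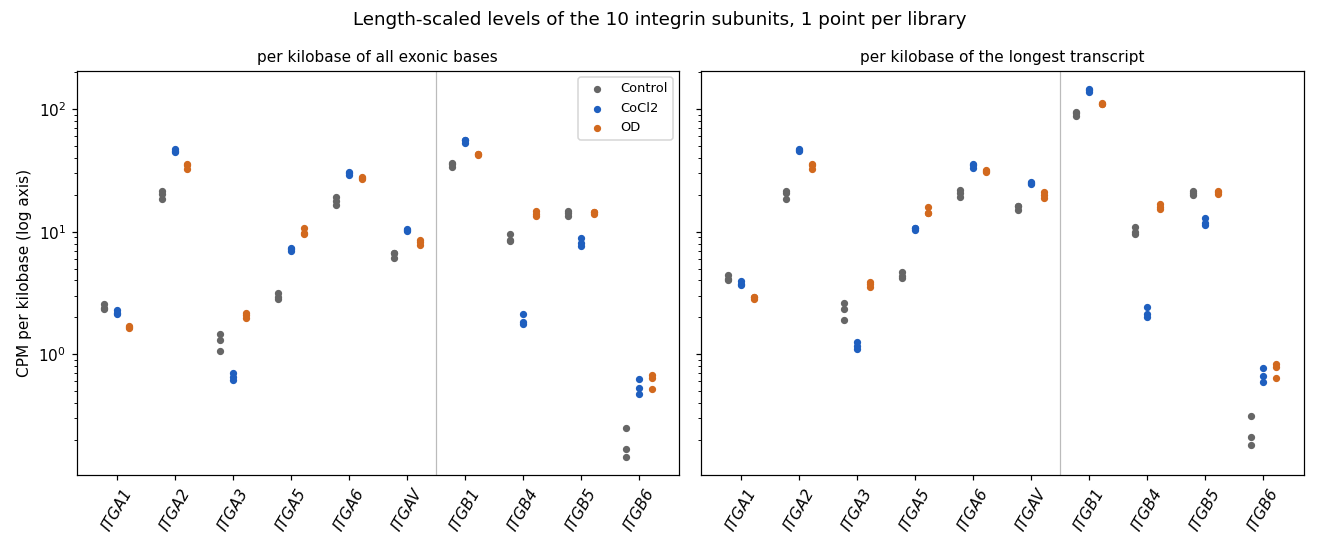
Length-scaled level of each member in every library (CPM per kilobase, log axis), per kilobase of all exonic bases (left) and of the longest transcript (right), with alpha chains left of the grey line and beta chains right of it. ITGB1 is the highest and ITGB6 the lowest beta chain in all groups, and ITGA5 is above ITGAV only with OD and only in the left panel.

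Among the 16 other integrin subunit genes, 8 passed the filter on low counts. With CoCl2, 0 rose in edgeR (0 also at an unadjusted p under 0.05 and in DESeq2) and 4 fell (ITGA9, ITGA2B, ITGB8 and ITGA7), but 2 fell with RLE factors or without CoCl2 library 1, 1 fell with DESeq2 on the 6 libraries, and 1 rose without control library 1. Over all tested genes, 40.4% rose and 42.8% fell with CoCl2. ITGA9, which pairs with ITGB1 and binds tenascin, had a mean of 39.3 CPM in control, 8.51 with CoCl2 and 35.5 with OD, and fell by 2.20 on the log2 scale with CoCl2 (SE 0.080, adjusted p = 6.13e-35). ITGA2B, the platelet alpha chain, stayed below 1.5 CPM in mean in every group, with 5 to 10 counts in the control libraries and 0 to 3 with CoCl2. With OD, ITGA2B (1.89) and ITGA10 (1.54) rose and ITGAE (−0.38) and ITGA9 (−0.14) fell, where 32.3% of all tested genes rose and 33.3% fell. These OD calls were less stable, since 0 rose among the subunits kept by a filter of 10 counts in every library, 0 fell with DESeq2 or without control library 1, and 1 fell without control library 3 or any OD library. ITGAM and ITGB3 passed in neither comparison with control. ITGB3, at 3 to 16 counts a library, was lower with CoCl2 than with OD (−1.10).

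The genes around the receptors were read from lists of ligands, cytoplasmic regulators and membrane partners. The list medians of the log2 fold change with CoCl2 and OD were 0.17 and 0.19 for fibronectin and RGD ligands, 0.09 and 0.38 for laminins, −0.39 and −0.16 for collagens, 0.14 and −0.23 for regulators of the beta tail, −0.07 and 0.13 for focal adhesion genes, 0.94 and 0.76 for hemidesmosome partners and 0.51 and 0.33 for membrane partners, beside −0.05 and −0.01 over all genes tested. For the list counts below, 40.4% of all 15944 tested genes rose and 42.8% fell with CoCl2. With library size only, 4134 genes rose and 9398 fell with CoCl2. With OD, 32.3% rose and 33.3% fell. Of 13 tested fibronectin and RGD ligands, 7 rose and 4 fell with CoCl2, or 5 and 8 with library size only, and 6 rose and 5 fell with OD. FN1, the fibronectin gene itself and the ligand of ITGA5:ITGB1, had a mean of 12122 CPM in control, 10458 with CoCl2 and 16367 with OD, and changed by −0.21 (SE 0.042) and 0.43 (SE 0.042). CCN2, a matricellular integrin ligand, rose by 6.25 (SE 0.072) with CoCl2 and by 0.28 (SE 0.11) with OD. THBS1 (1.39 and −0.65) and CCN1 (1.54 and −0.45), also matricellular, went up with CoCl2 and down with OD, whereas TNC, tenascin-C, fell with both (−2.44 and −0.78). LTBP1, which holds latent TGF-beta in the matrix, fell with CoCl2 (−1.96) and was at 0.05 with OD. NPNT (1.37) and TGFB1 (1.21), whose latent form ITGAV:ITGB6 binds, rose with OD.

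Of 9 tested laminin chains, 5 rose and 4 fell with CoCl2, or 3 and 6 with library size only, and 6 rose and 2 fell with OD. LAMB3 (2.64 and 1.44), a chain that joins LAMA3 in the laminin that ITGA6:ITGB4 binds, rose with both. LAMA3 fell with CoCl2 by 0.80 and rose by 0.17 with OD, the same directions as ITGB4 and ITGA3. LAMA1 fell with both (−2.84 and −0.97). Of 8 tested collagen genes, 3 rose and 5 fell with each treatment, and with library size only 0 rose with CoCl2. The basement membrane chains COL4A5 (−1.68) and COL4A6 (−1.66) fell most with CoCl2, and COL6A2 (1.35) and COL6A1 (0.93) rose most with OD.

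Inside the cell, talins and kindlins bind the beta tail and activate integrins, and filamins compete with them. Of 14 tested genes of this list, 7 rose and 4 fell with CoCl2, or 2 and 9 with library size only, and 3 rose and 9 fell with OD. TLN2, a talin, fell with CoCl2 (−1.27) and rose with OD (0.62), and FERMT1, the epithelial kindlin, fell with CoCl2 (−1.70) and by 0.20 with OD. FERMT3, the kindlin of blood cells, rose with CoCl2 (1.81, SE 0.20, from a control mean of 1.21 CPM) and was at 0.32 with OD. TLN1, the other talin, rose by 0.23 with CoCl2, or was at −0.27 with library size only, and fell by 0.51 on the log2 scale with OD, and FERMT2 rose by 0.22 with CoCl2, or was at −0.29 with library size only. FLNC rose with both (2.00 and 0.84), while FLNA fell with OD (−0.88). Of 27 tested focal adhesion adaptors and kinases, 9 rose and 12 fell with CoCl2, or 19 fell with library size only, and 12 rose and 7 fell with OD. TNS3 (−2.27) and TNS4 (−2.54), tensins that bind beta tails, fell with CoCl2, TNS4 from a control mean of 3.05 to 0.508 CPM. PARVB (−2.14), a parvin, also fell with CoCl2, and CRKL (1.64), an adaptor, rose. With OD, TNS1 (2.04) and the kinases FYN (1.77), PTK2B (1.09) and SRC (1.07) rose, and with CoCl2 PTK2B (−0.36) and SRC (−0.73) fell.

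Of the 4 hemidesmosome partners of ITGB4, 3 rose and 1 fell with CoCl2 and 3 rose and 0 fell with OD. PLEC, which links ITGB4 to keratins, rose with CoCl2 (1.57, SE 0.046) and OD (1.09, SE 0.045), and COL17A1 rose by 1.77 (SE 0.29) and 2.66 (SE 0.25) from a control mean of 0.515 CPM. CD151, a tetraspanin bound to laminin receptors, fell with CoCl2 (−0.36) and was at −0.04 with OD, and DST (0.31 and 0.43) rose with both, though with library size only its CoCl2 value turned to −0.20. Of 11 tested membrane partners, 8 rose and 2 fell with CoCl2, or 5 and 4 with library size only, and 10 rose and 1 fell with OD. PLAUR, the urokinase receptor, which can associate with ITGA5:ITGB1, rose by 2.84 (SE 0.13) and 2.55 (SE 0.13) from 2.16 CPM. SLC3A2, which binds beta tails, rose by 2.04 with CoCl2 and 0.17 with OD. CD82, a tetraspanin, rose with OD (2.14, from a control mean of 1.10 CPM). SDC1, a syndecan, fell with both (−2.78 and −0.49), and CD47, an integrin-associated protein, fell with CoCl2 (−1.24).

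**Figure D5:**
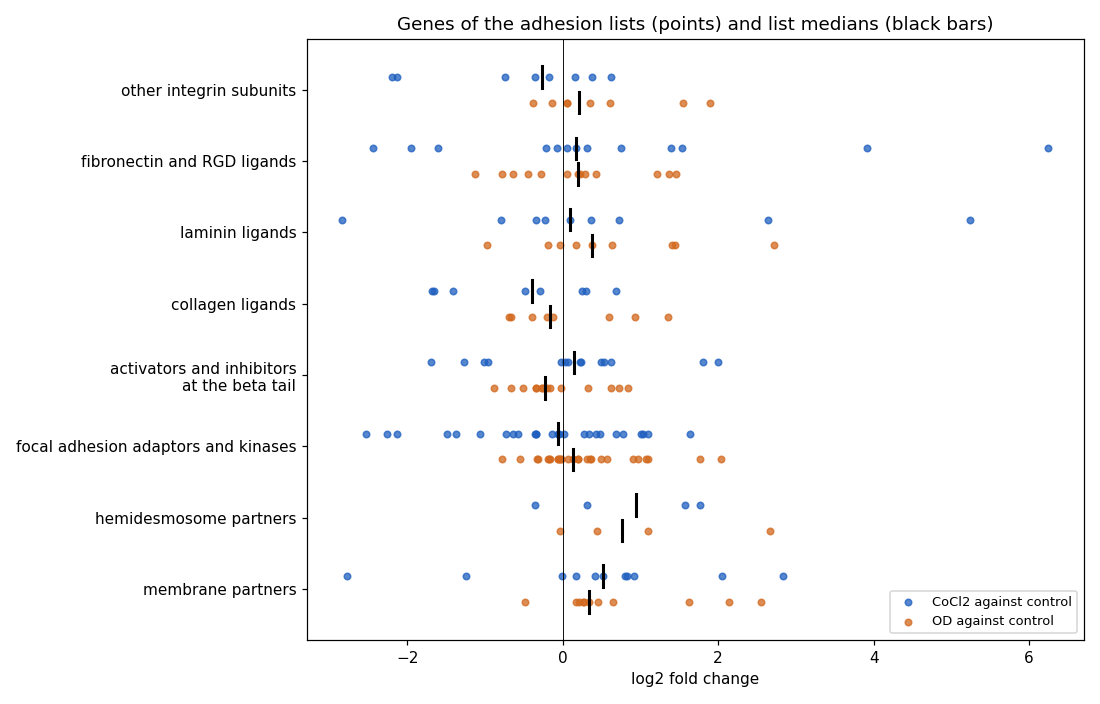
Log2 fold changes against control with CoCl2 (blue) and OD (orange) of the tested genes in 8 lists, 1 point per gene, with the list median as a black bar. The 4 hemidesmosome partners have medians of 0.94 (CoCl2) and 0.76 (OD), and the 8 collagen ligands have medians of −0.39 and −0.16.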

How the data were processed

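Polyadenylated RNA of uCaco-2 cells was sequenced as single-end 75-nucleotide reads from stranded libraries. Per the labels, the authors used FastQC 0.11.9, cutadapt 2.10 and STAR 2.7.5b on GRCh38.p13. The deposited values are raw counts per gene symbol, whole numbers with no normalization, and 0 columns were left out. The counting tool, its strand setting and its handling of shared reads are not given in the sources used here, so genes that overlap others are uncertain.

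From the counts, edgeR 4.0.16 (R 4.3.3) gave TMM factors, the expression filter (filterByExpr) and a robust quasi-likelihood fit on all 9 libraries with 1 mean per group. P-values were adjusted by Benjamini-Hochberg over 15944 genes. SE is the log2 fold change divided by the square root of F, and 95% intervals are normal. Rose or fell means an adjusted p under 0.05, and the study's threshold adds a log2 fold change above 1 in size. Ratios were compared by exact two-sided permutation. Alternatives were DESeq2 1.42.0, other scalings, filters and sample sets, a replicate block and each library left out. Steps were checked on simulated counts. Replicate pairs differed beyond counting noise (chi-square per degree of freedom 1.74 to 3.05).

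Members and lists were chosen with earlier results of these data known. All members, the tested other subunits and PLAUR are named. Other genes are among the 4 of each list and comparison with the largest called fold changes (mean of at least 1 CPM, groups not overlapping) and the 3 nearest to ITGA5, and 1 gene under this rule is not reported here. FN1, TLN1, FERMT2 and LYZ were added after their values were seen. The other cell type markers named singly, such as VIL1, KRT20 and PTPRC, come from the marker lists and not from this rule. Lengths, positions and overlaps are from GENCODE 44 (GRCh38) matched by symbol. Promoter windows of ITGA3 and ITGB4 were not used here. P-values measure the spread between these libraries.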

Additional observations from a re-analysis of the deposited data

How the results depend on the processing

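The call and direction of ITGA2, ITGA3, ITGA5, ITGA6, ITGAV, ITGB1, ITGB4 and ITGB6 against control held in every alternative that tested for any change. Single members were not compared in the test against a log2 fold change of 1. With library size only, members past a log2 fold change of 1 with CoCl2 were 1 higher and 3 lower, where 1833 and 5839 of 15944 genes were. CoCl2 against OD gave 0 higher and 10 lower, where 3776 and 9802 genes were, and 4 lower past a size of 1, where 6026 were. In that setting the values of CoCl2 against OD were −0.15 for ITGA1, −0.12 for ITGA2, −0.42 for ITGA6, −0.22 for ITGAV and −0.19 for ITGB1, and ITGA6 was at −0.00072 with upper-quartile factors. Library size only leaves out the TMM factors, and upper-quartile factors replace them. The cause of these changes was not tested. Members lower past 1 with CoCl2 were 2 with upper-quartile factors and 2 with no filter, and 1 to 2 with a library left out (2 without control library 1 or CoCl2 library 1). ITGA3 was at −0.97 with all libraries and TMM factors, and ran from −1.09 to −0.86 with a library left out. The cause of the shift was not tested. With a library left out, ITGB5 with OD ran from −0.013 (without control library 3) to 0.061, the ITGA5 to ITGA2 ratio with CoCl2 from −0.0024 to 0.18 and the ITGA5 to ITGB6 ratio with OD from −0.15 to 0.18. Per kilobase of the longest transcript, ITGA5 held 6.54% of the alpha chains in control, 8.74% with CoCl2 and 13.8% with OD.

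The deviations of same-numbered libraries correlated at −0.0177 to 0.0668 (9 pairs) and those of others at −0.0689 to 0.0624 (18 pairs). The former are too small to pair the libraries by number (over 0.1 was required in every pair). With the replicate number as a block, 6 members rose and 4 fell with CoCl2 and 8 rose and 1 fell with OD, the counts without it.

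Over all tested genes, library size only changed the counts past 1 with CoCl2 from 3167 higher and 3724 lower to 1833 and 5839, and for CoCl2 against OD from 2790 and 3790 to 1351 and 6026, while the counts that rose went from 6441 to 4134 and from 6416 to 3776. A filter of 10 counts in every library gave 803 higher and 331 lower with OD in place of 1449 and 664, and a test against a log2 fold change of 1 gave 720 and 245. That filter gave 1827 higher for CoCl2 against OD and 3 laminin chains that rose with CoCl2. With library size only, 2 hemidesmosome partners fell with CoCl2. Collagen genes that fell with OD were 3 with DESeq2. Of the other subunits, without control library 1, 1 rose with CoCl2 and 0 fell with OD, and 2 fell with CoCl2 without CoCl2 library 1. With OD, 0 or 1 of them fell in most other settings. Depth limits ITGB6, at 15 to 83 counts a library.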

Other observations

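By the distance between pairs of log2 fold changes (CoCl2 and OD against control), over the 13428 tested genes averaging 1 CPM or more, the named genes nearest to ITGA5 were PTK6 (distance 0.057, with 1.26 and 1.81), a kinase of epithelial cells, FUT11 (distance 0.10, with 1.20 and 1.83), a fucosyltransferase, and HK2 (distance 0.11, with 1.31 and 1.66), a hexokinase of glycolysis. Of the members, ITGB6 stood nearest, at rank 25 (distance 0.28), and ITGA2 followed at rank 424 (distance 0.99). ITGB1, the partner chain of ITGA5, was at rank 2120 and ITGB4 at rank 12000, and PLAUR was at rank 3000. The distances describe 9 libraries in which both comparisons share their control samples.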
